A study of Mus musculus with 14 samples.

Results

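The plasma cell genes described here are Xbp1, Derl3, Fkbp11, Mzb1, Sdc1 and Tnfrsf17, 6 genes measured by 10 probes among the 56605 probes and 36870 gene names of a whole-genome mouse array. They were taken by name, as the probes whose gene name in the scanner files equals that of a member. The 14 arrays each hold Cy3-labelled RNA from CD4+ T-cells, 7 from Roquin san/+ mice and 7 from wild-type mice. Roquin san/+ mice carry 1 copy of the sanroque allele of Roquin, an RNA-binding protein that represses mRNAs in T-cells, and the strain is used as a model of follicular helper T-cell (Tfh) lymphoma. The age, sex and treatment of the mice and the way in which CD4+ T-cells were isolated are not given in the sources used here. Nothing in the labels says that each array is a separate mouse, so p-values measure the spread between arrays. Genotype was not balanced over the 2 slides that carried the arrays. Slide 1 held replicates A, B, C, F and G of Roquin san/+ with replicates F and G of wild-type, and slide 2 held replicates D and E of Roquin san/+ with replicates A to E of wild-type.

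Plasma cells are B cells that have turned to antibody secretion. They expand the endoplasmic reticulum (ER), and they do so through the unfolded protein response, in which the ER sensor IRE1 (Ern1) splices the mRNA of Xbp1 and the resulting transcription factor raises genes for protein folding, secretion and the disposal of misfolded protein. The master regulators Prdm1 (Blimp-1) and Irf4 switch this program on. Tfh cells help B cells to become plasma cells in the germinal centre, and sanroque mice are known for excess Tfh cells, germinal centres and autoantibodies. T cells also use Xbp1, Prdm1 and Irf4, whereas Sdc1, Tnfrsf17 and Mzb1 are used as markers of plasma cells.

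Levels are log2 processed signals less the 75th percentile, on the same array, of 10346 bright reference probes that every array detected, so that 0 marks a bright probe and 1 unit is a doubling. Levels of different probes cannot be set against each other. On 1 array of each genotype, replicate G of Roquin san/+ and replicate E of wild-type, the spots lay 2 grid rows off their names and were moved back, which raised the correlation with the median array from 0.0143 to 0.909 and from 0.0149 to 0.889. On these arrays the lowest processed signal was high, at levels of -5.88 and -5.68, and 22.0% and 19.5% of probes were well above background, against 53.5% to 75.5% on the other 12 arrays. Values of Sdc1, Fkbp11 and 1 Xbp1 probe at these floors are upper bounds. Roquin san/+ replicate C was the dimmest array, with a 75th percentile of these reference probes of 800.27 units against 4897.7 to 13111 units on the others, and Roquin san/+ replicate F carried markers of several other cell types, given below. All 7 T-cell markers examined, Cd3d, Cd3e, Cd3g, Cd4, Cd5, Cd28 and Lck, were well above background on all 12 well-placed arrays.

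All 6 plasma cell genes had a higher mean in Roquin san/+ than in wild-type CD4+ T-cells, by 0.28 (Tnfrsf17) to 0.855 (Derl3) on the log2 scale, but under quantile normalization Fkbp11 turned to -0.17. The median difference over the 6 genes was 0.53. None of the 6 passed limma's test with Benjamini-Hochberg adjustment over 28813 probes, a test that 0 probes passed, 0.0% of all tested. A difference above 0 was itself common, held by 60.4% of all probes tested, whose median was 0.07. At an unadjusted p below 0.05, 0 of the 6 genes and 1100 probes were found, 999 of these (3.47%) higher in Roquin san/+. The groups overlapped for all 6 genes, and 12 probes (0.0416%) lay above wild-type on every Roquin san/+ array. All 10 probes passed the filter on dim probes, 8 of them through both genotypes. In RNA from a mixture of cells, fewer cells of a type and less RNA per cell cannot be told apart.

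Xbp1, the transcription factor of the unfolded protein response, was measured at mm9 chr11:5425816-5425875 on the plus strand, at base 2066 of its transcript. Its level ran from 0.19 through a median of 0.998 to 1.93 on the 7 Roquin san/+ arrays and from -0.24 through 0.16 to 1.30 on the 7 wild-type arrays. All 7 Roquin san/+ arrays lay above the wild-type median, while wild-type replicates B and C lay above 3 or more of the Roquin san/+ arrays. The mean was 0.94 ± 0.56 (SD, n = 7) against 0.36 ± 0.56 (SD, n = 7), a difference of 0.58 with a 95% interval of -0.04 to 1.19, or 1.49-fold (limma adjusted p = 0.867, two-sided exact permutation p = 0.0775). The other Xbp1 probes, at bases 1119 and 1220 of the transcript, gave 0.51 and 0.60. The former lay at the signal floor on wild-type replicate E, and its difference was 0.22 without that array and 0.18 without both re-registered arrays. Across 12 arrays they correlated with the first at r = 0.741 and 0.844, and with each other at 0.98. The spliced and unspliced forms of the Xbp1 mRNA share the sequence of these probes, so the arrays do not tell them apart.

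Derl3 belongs to the derlins, which move misfolded proteins out of the ER for degradation. Its level (mm9 chr10:75358606-75358665, plus strand) ran from -2.76 through -1.50 to -0.19 in Roquin san/+ and from -3.70 through -2.44 to -1.14 in wild-type. The highest of all 14 arrays was Roquin san/+ replicate C and the lowest 2 were wild-type replicates G and F. The difference of 0.855 (95% interval -0.10 to 1.81, 1.81-fold) had a limma adjusted p of 0.867 and an exact permutation p of 0.104. When arrays were left out in turn it ran from 0.62 (without Roquin san/+ replicate C) to 1.08 (without wild-type replicate B). The promoter of Derl3 is shown because it holds the ER stress response element, CCAAT followed after 9 bases by CCACG, through which ATF6 and XBP1 are known to act. RefSeq promoter windows (build GRCm38.p6, 250 bases before to 50 bases after each gene's start) were found for 5 of the 6 members, and both strands were searched. The 250 bases before the start of Derl3 at chr10:75893148-75893397, plus strand, are given 5′ to 3′, with CCACG on either strand and the CCAAT partner of the element in capitals. The element itself reads on the opposite strand, at positions -156 to -138 from the start.
Derl3: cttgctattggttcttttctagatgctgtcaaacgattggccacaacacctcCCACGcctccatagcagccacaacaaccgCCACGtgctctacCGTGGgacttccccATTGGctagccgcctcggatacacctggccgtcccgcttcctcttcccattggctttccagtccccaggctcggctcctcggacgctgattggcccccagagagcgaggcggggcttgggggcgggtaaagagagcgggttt
This spaced element was found in 39 of 32851 promoter windows (0.119%), and among the members in Derl3 alone. CCACG by itself, which is part of the element, was in 32.8% of all windows and in those of Derl3, Sdc1 and Fkbp11.

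Fkbp11, a peptidyl-prolyl isomerase that helps proteins fold in the secretory pathway, was among the dim members (mm9 chr15:98554809-98554868, minus strand). Its level ran from -7.33 through -6.33 to -5.36 in Roquin san/+, with 5 of 7 arrays well above background, and from -7.97 through -6.77 to -5.68 in wild-type, with 6 of 7, the last value being the floor of replicate E. The highest was Roquin san/+ replicate F and the lowest wild-type replicate G, and the arrays between them were mixed. The difference was 0.36 (95% interval -0.49 to 1.21, limma adjusted p = 0.892) and -0.17 under quantile normalization. With arrays left out in turn it ran from 0.17 (without wild-type replicate G) to 0.55 (without wild-type replicate E), and it was 0.46 without both re-registered arrays. One of its 2 promoter windows holds TGACGTG, the core of the unfolded protein response element, on the opposite strand at positions 1 to 7 from the start, a motif found in 2.01% of all windows. It is shown in capitals within chr15:98727610-98727639 (GRCm38.p6, minus strand).
Fkbp11: gcccggctgaaaCACGTCAgctttggcttg
No other member's window held this motif.

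Mzb1 is a co-chaperone of the ER that assists the assembly of immunoglobulin in B and plasma cells. Its level (mm9 chr18:35807187-35807246, minus strand) ran from -2.20 through -0.94 to 0.02 in Roquin san/+ and from -3.26 through -2.01 to -0.415 in wild-type. All 14 arrays were well above background. Roquin san/+ replicate F was highest and wild-type replicates G and F were lowest, with wild-type replicates B and C among the Roquin san/+ arrays. The difference was 0.71 (95% interval -0.25 to 1.68, 1.64-fold, limma adjusted p = 0.867, exact permutation p = 0.168), and 0.53 without Roquin san/+ replicate F. Over arrays left out in turn it ran from 0.475 (without wild-type replicate G) to 0.95 (without wild-type replicate B).

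Sdc1 encodes syndecan-1 (CD138), the surface proteoglycan by which plasma cells are commonly sorted. At its brightest probe (mm9 chr12:8799383-8799442, plus strand) the level ran from -6.60 through -5.66 to -4.55 in Roquin san/+ and from -7.84 through -5.92 to -4.62 in wild-type, with 6 of 7 arrays of each genotype well above background. Roquin san/+ replicate C and wild-type replicate C lay side by side at the top, and wild-type replicate G was the lowest. The difference was 0.48 (95% interval -0.48 to 1.45, limma adjusted p = 0.871). With arrays left out in turn it ran from 0.18 (without wild-type replicate G) to 0.72 (without wild-type replicate C), and it was 0.60 without both re-registered arrays. The neighbouring probe at base 1837 of the transcript followed the first across 12 arrays (r = 0.896) with a difference of 0.215, which turned to -0.10 without wild-type replicate G and to -0.21 under quantile normalization. The probe at base 323 (mm9 chr12:8796227-8796286) did not follow them (r = 0.25 and 0.177) and gave 0.375, or -0.04 under quantile normalization. The Sdc1 promoter held CCACG on the opposite strand, at positions -168 to -164.

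Tnfrsf17 encodes BCMA, the receptor that keeps plasma cells alive on BAFF (Tnfsf13b) and APRIL (Tnfsf13). Its level (mm9 chr16:11320045-11320104, plus strand) ran from -5.61 through -4.75 to -3.50 in Roquin san/+ and from -6.43 through -5.16 to -3.25 in wild-type. Wild-type replicate C was the highest of all 14 arrays and wild-type replicate G the lowest, so that the wild-type arrays enclosed the whole Roquin san/+ range. The difference was the smallest of the 6 genes, 0.28 (95% interval -0.65 to 1.22, limma adjusted p = 0.935). When arrays were left out in turn it ran from 0.05 (without wild-type replicate G) to 0.58 (without wild-type replicate C).

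**Figure D1:**
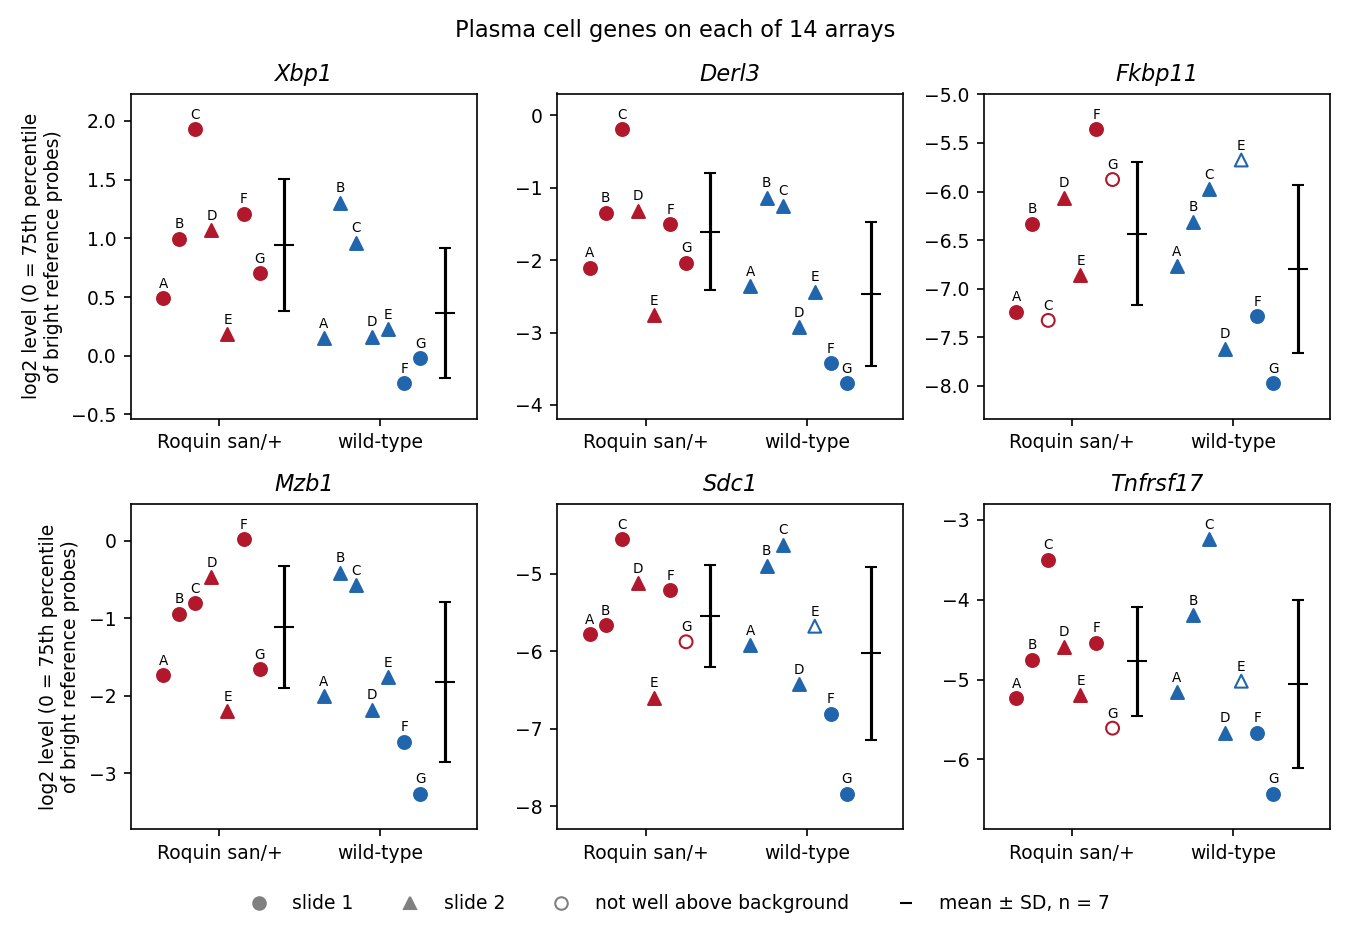
Log2 level (y axis, 0 at the array's 75th percentile over 10346 bright reference probes) of the brightest probe of each gene on the 7 Roquin san/+ and 7 wild-type arrays, with replicate letters, slide by symbol, open symbols where the probe was not well above background, and mean ± SD in black. Wild-type replicates D, F and G are low and wild-type replicates B and C high for most genes, and the genotypes overlap in every panel.

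By slide, the differences were large on slide 1 and near 0 on slide 2. Within slide 1, the 5 Roquin san/+ arrays exceeded the 2 wild-type arrays by 1.195 (Xbp1) to 2.13 (Derl3), with Fkbp11 at 1.202, Tnfrsf17 at 1.32, Mzb1 at 1.90 and Sdc1 at 1.91, and 65.3% of all probes were also above 0 there. For 5 of the 6 genes, all but Fkbp11, every Roquin san/+ array of slide 1 lay above both wild-type arrays, as 17.2% of all probes tested did. Within slide 2, the 2 Roquin san/+ arrays differed from the 5 wild-type arrays by -0.35 (Sdc1) to 0.065 (Xbp1), with Derl3 at -0.02, Mzb1 at 0.05, Fkbp11 at 0.01 and Tnfrsf17 at -0.23. The median over the 6 genes was 1.61 on slide 1 and -0.005 on slide 2, while the median of all probes tested was 0.20 and -0.09. Limma called 0 probes on either slide (0.0%). At an unadjusted p below 0.05, 5 members were higher on slide 1, as were 1932 probes (6.71%), and none on slide 2, where 158 probes (0.548%) were. With 5 arrays against 2, the smallest exact two-sided p is 0.0952, and 5 members reached it on slide 1. With slide as a block, the differences were 0.54 (Tnfrsf17) to 1.06 (Derl3), all above 0 (56.6% of all probes were), none with an unadjusted p below 0.05 (1.34% of all probes, higher) and each with a limma adjusted p of 0.9999.

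The difference between the slides was tested as an interaction, slide 2 minus slide 1, in the same limma fit. It was below 0 for 6 of 6 members, as for 67.5% of all probes, and 0 probes (0.0%) passed adjustment. At an unadjusted p below 0.05, 2 members were found, Sdc1 at -2.26 (95% interval -3.94 to -0.58) and Derl3 at -2.15 (-3.96 to -0.33), against 8.34% of all probes below 0 at that p. Both had a limma adjusted p of 0.492. The contrast of slide 1 rests on 2 wild-type arrays, replicates F and G, which were below all 7 Roquin san/+ arrays for 5 and 6 of the 6 genes. On slide 2, wild-type replicates D and A were below all 7 for 4 and 1 of the genes. The shares of all probes with such ranks were not computed. Wild-type replicate G was the lowest of all 14 arrays for 5 genes. Wild-type replicates B and C, on slide 2, were the highest of their genotype for 3 and 2 genes, and Roquin san/+ replicate E, also on slide 2, was the lowest of its genotype for 4 genes. Slide, mouse and cell preparation cannot be told apart for these arrays.

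**Figure D2:**
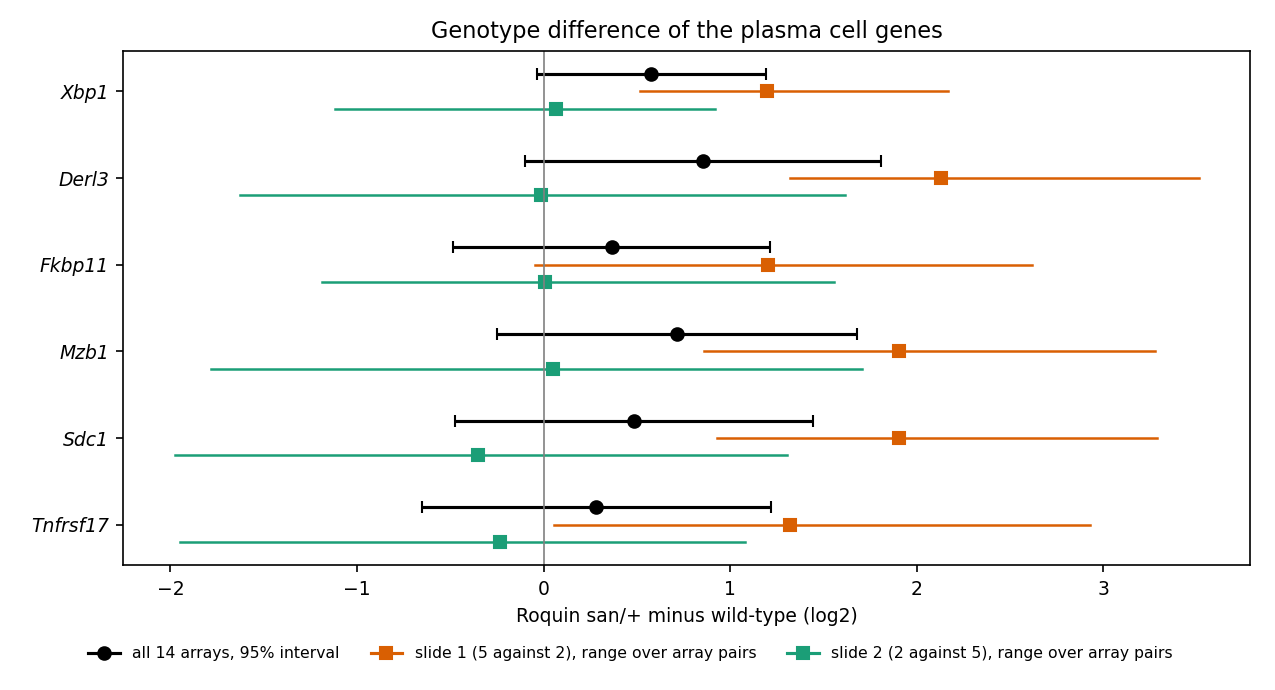
Difference of Roquin san/+ minus wild-type (x axis, log2) for the brightest probe of each gene over all 14 arrays (black, limma estimate with 95% interval), within slide 1 (orange) and within slide 2 (green), where squares are differences of means and lines the range over all pairs of arrays. The slide 1 values lie at 1.195 to 2.13 and the slide 2 values at -0.35 to 0.065, and every black interval includes 0. Under quantile normalization the black value of Fkbp11 is -0.17.

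The other plasma cell regulators and surface genes, a list of 13 of which 12 were on the array, were also higher on average. All 12 had a higher mean in Roquin san/+ (60.4% of all probes did), with a median of 0.59, and 0 passed adjustment, while 4 had an unadjusted p below 0.05 (3.47% of all probes did, higher). That count was 2 without Roquin san/+ replicate F and 1 without it and both re-registered arrays. The 3 with the largest differences were Tnfsf13b, the BAFF cytokine, at 1.23, Pou2af1, the B-cell coactivator OBF-1, at 1.055, and Irf4 at 0.955 (limma adjusted p = 0.867 each). Tnfsf13b was 2.62 on slide 1 and -0.21 on slide 2, and Pou2af1 was 2.17 and -0.215. Tnfsf13b, 1 of the 4 with an unadjusted p below 0.05, was dim, at means of -6.395 in Roquin san/+ and -7.63 in wild-type. It was well above background on 9 of the 12 well-placed arrays and on neither re-registered array, so it passed the filter through 1 genotype alone. Irf4 rested on levels of -3.27 ± 0.61 against -4.22 ± 0.56 (SD, n = 7 each) and was 1.55 on slide 1 and 0.51 on slide 2, the highest slide 2 value of the list. Prdm1 had a difference of 0.66 (1.17 and 0.15 by slide). Jchain, the joining chain of secreted IgM and IgA, had the smallest at 0.15 (1.24 and -0.49). Within slide 2, 3 of the 12 genes were higher in Roquin san/+ and the median was -0.16, against 40.5% of all probes higher.

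The ER stress response and secretory machinery, 37 genes of which 36 were tested, moved little. Of the 36, 29 (80.6%) had a higher mean in Roquin san/+ and 7 a lower one, while 60.4% of all probes were higher. Their median was 0.11, near the 0.07 of all probes, and none had an unadjusted p below 0.05 in either direction. The largest differences were those of Ern1, the IRE1 sensor that splices Xbp1, at 0.48, Creld2, an ER protein induced by stress, at 0.44, and Hyou1, an ER chaperone, at 0.40. On slide 1 and slide 2, Ern1 was 1.12 and -0.04, Creld2 1.225 and -0.32, and Hyou1 0.94 and -0.07. The lowest were Sec61b, a subunit of the translocon, at -0.175, Atf4, the transcription factor of the PERK branch, at -0.17, and Ssr2, of the translocon-associated complex, at -0.06. The abundant chaperones Hspa5 (BiP) and Hsp90b1 (GRP94) differed by 0.13 and 0.19. Without Roquin san/+ replicate F and both re-registered arrays, 18 of 36 were higher (59.0% of all probes were) and the median was 0.01. Of the 29 genes of this list with a promoter window, 8 held the spaced ER stress response element described for Derl3, namely Calr, Canx, Creld2, Dnajc3, Hsp90b1, Hspa5, Pdia6 and Syvn1. None of the 13 plasma cell regulators and surface genes held it.

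Markers of other cell types also varied from array to array, not always in the direction of the plasma cell genes. Their part in the differences was not tested. Averaged over the 10 B-cell markers, 7 of them well above background on all 12 well-placed arrays, the level ran from -6.26 to -0.36 in Roquin san/+ and from -6.63 to -2.19 in wild-type. Roquin san/+ replicate F was highest for 9 of the 10. Replicate F was also the highest array for 8 of 9 myeloid markers, 5 of 5 NK-cell markers, 2 of the 6 plasma cell genes and 0 of 7 immunoglobulin genes. It was the highest for 7 of the 12 plasma cell regulators and surface genes, among them Tnfsf13b, Pou2af1 and Irf4, which had the largest differences of that list. The 8 B-cell markers tested had a median difference of 0.90, and 0.30 without replicate F, while the 6 plasma cell genes went from 0.53 to 0.48. Within slide 1 the B-cell markers had a median of 2.98 and the 9 myeloid markers one of 1.82, and within slide 2 these were -0.91 and 0.15.

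The 3 arrays with the highest mean level of the plasma cell genes were Roquin san/+ replicate C (-2.41), wild-type replicate C (-2.45) and Roquin san/+ replicate F (-2.56). They were also the 3 with the lowest mean level of the T-cell markers, at 1.01, 0.83 and 0.57 against 1.66 to 2.15 on the other 11. Wild-type replicate B came next for the plasma cell genes, at -2.61, and its T-cell marker level was 1.73. Roquin san/+ replicate C was also the dimmest array. The other markers of these 3 arrays differed. Wild-type replicate C had a B-cell marker level of -5.35, below 8 of the other arrays, while its erythroid markers, at -0.33, and myeloid markers, at -0.84, were high. Immunoglobulin genes, the product that plasma cells secrete, were represented by 7 variable-region probes, of which 4 were tested and 3 were dim. Their median difference was 0.05, with 2 higher and 2 lower, and they ran from -0.30 (Igh-VJ558) to 0.72 (Igkv4-72). On the well-placed arrays the immunoglobulin mean ran from -6.57 (replicate E) to -4.29 (replicate C) in Roquin san/+ and from -6.245 to -4.81 in wild-type, and on the re-registered arrays (-4.365 and -4.65) it includes floor values of the dim probes. Plasmacytoid dendritic cells also express Mzb1 and Xbp1, and the mean of their 7 markers ran from -3.78 to -1.71 in Roquin san/+ and from -4.335 to -2.72 in wild-type. Roquin san/+ replicate F had the highest mean but was the highest array for only 3 of the 7 markers, Cox6a2, Ly6d and Spib. Of the 6 tested, 5 were higher in Roquin san/+ (60.4% of all probes were). Their differences ran from -0.62 (Ccr9) to 0.80 (Cox6a2), with a median of 0.47 that was -0.305 within slide 2. The T-cell markers had a median of -0.10, which turned to 0.08 without replicate F.

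**Figure D3:**
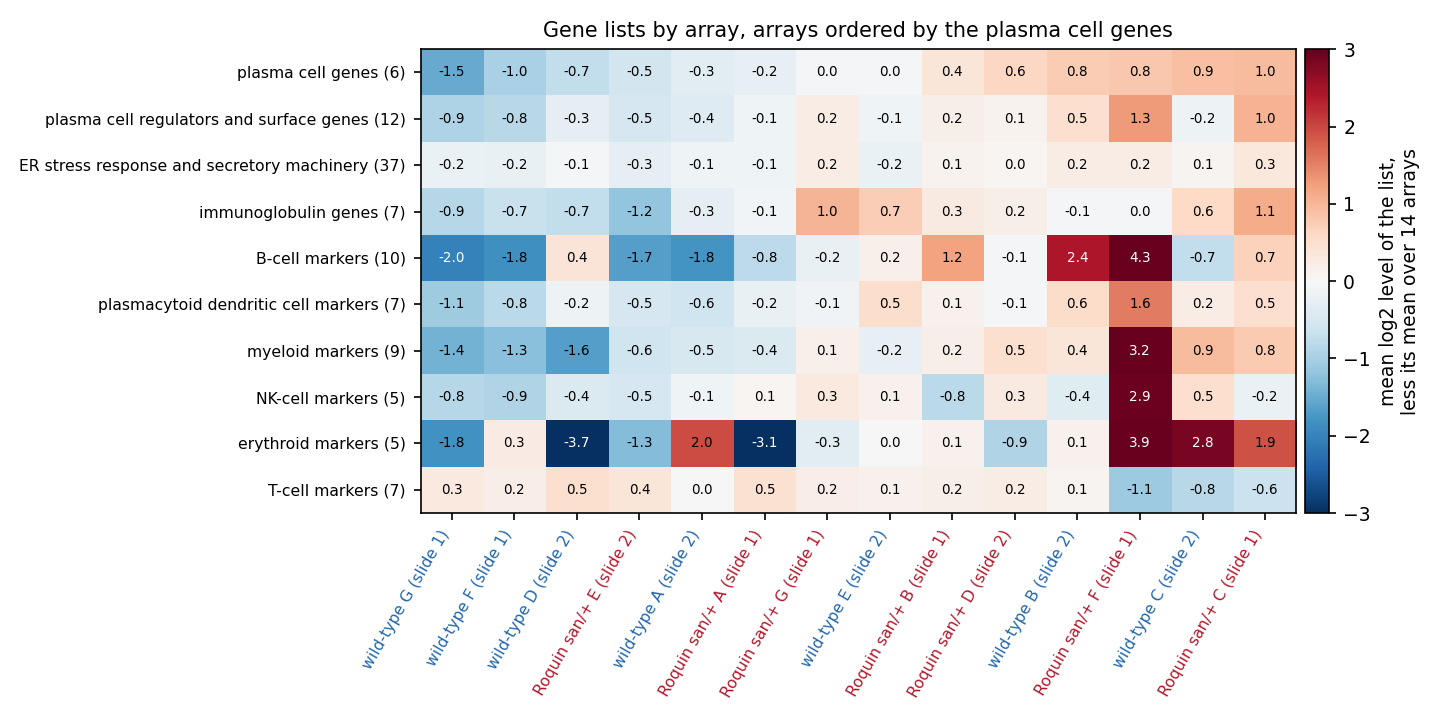
Mean log2 level of each gene list on each array less the mean of that list over the 14 arrays (cell colour and printed value, colours end at 3 and -3), for lists in rows with their number of genes and arrays in columns ordered by the mean of the plasma cell genes. Roquin san/+ replicate F stands out for B-cell, myeloid, NK-cell and erythroid markers, and the T-cell markers are lowest on 3 of the 4 arrays at the right.

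The plasma cell genes varied together from array to array. Of the 15 pairs of genes, 12 had a permutation p below 0.05 for Pearson's r after Benjamini-Hochberg adjustment over the 15, and 11 for Spearman's rho, with r from 0.386 to 0.96 and a median of 0.844 over 14 arrays. Xbp1 and Derl3 had r = 0.96 (rho = 0.93, permutation p = 1e-05 for both, the smallest that 100000 permutations give, adjusted 3.75e-05 and 5e-05). Without the 2 arrays farthest from the median of Xbp1 their r was 0.93, and it was 0.974 within slide 1 and 0.959 within slide 2. Sdc1 and Tnfrsf17 had r = 0.92 and rho = 0.934 (permutation p = 1e-05 and 2e-05, adjusted 3.75e-05 and 5e-05), with 0.877 without the 2 farthest arrays and 0.933 and 0.899 within slides. Fkbp11 had the lowest values over 14 arrays, with r = 0.386 to Xbp1 (permutation p = 0.171) and 0.447 to Tnfrsf17 (permutation p = 0.108). Its highest r was 0.703 to Mzb1 (rho = 0.648, permutation p = 0.00574 and 0.0148, adjusted 0.00783 and 0.0202). Without the 2 farthest arrays its r fell to 0.473 with Mzb1 and 0.249 with Tnfrsf17. It rose to 0.67 with Xbp1, 0.682 with Sdc1 and 0.649 with Derl3. Fkbp11 lay at the signal floor on both re-registered arrays. Without these, 13 of the 15 pairs passed and r ran from 0.517 to 0.963. Within slides the median r was 0.854 on slide 1 and 0.859 on slide 2. The 6 genes were measured on the same arrays and share the brightness and the cell makeup of each. The share of all gene pairs that would pass the same test was not computed, so the counts of pairs are not shown to be particular to these genes. An r of 0.517 was common on these arrays: over the 12 well-placed arrays it placed Fkbp11 5901st for Xbp1 among 19155 other genes. The other members ranked higher for Xbp1, with Derl3 3rd (r = 0.963), Sdc1 111th (0.869), Mzb1 120th (0.865) and Tnfrsf17 211th (0.840).

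**Figure D4:**
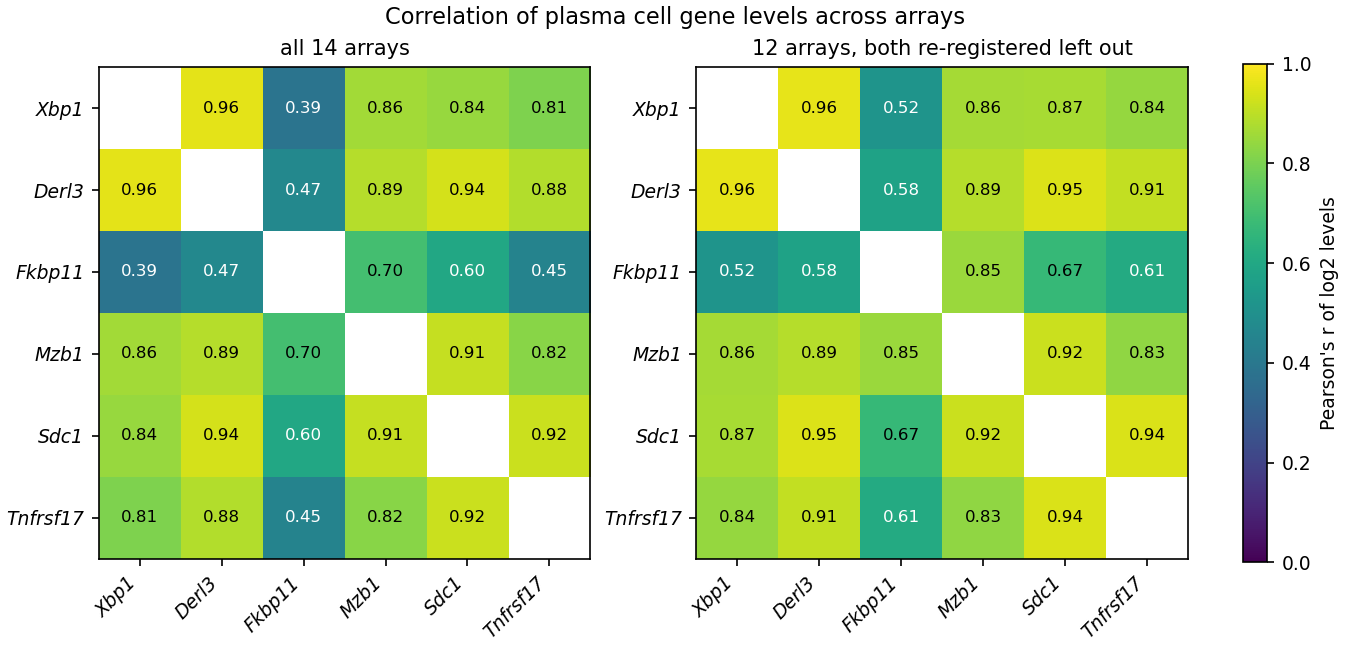
Pearson's r between the log2 levels of each pair of plasma cell genes (brightest probe of each, cell colour and printed value) over all 14 arrays and over the 12 arrays without re-registration. The 5 genes other than Fkbp11 have r of 0.81 to 0.96 with each other on 14 arrays, and Fkbp11 has the lowest values.

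The genes whose levels were most like those of each member were named by Pearson's r over the 12 well-placed arrays among 19155 other genes, as a description. Arrays share their depth and cell makeup, which enters every such r. For Xbp1 the 3 most alike were Bhlha15 (r = 0.973), the secretory-cell transcription factor Mist1, Creld2 (0.969) and Derl3 (0.963). For Derl3 they were Cacna1s (0.978), a muscle calcium channel subunit, Bhlha15 (0.977) and Rapgef3 (0.974), an exchange factor for Rap1. For Sdc1 they were Derl3 (0.949), Tnfrsf17 (0.943) and Gna14 (0.939), a G-protein subunit. For Tnfrsf17 they were Jchain (0.959), Sdc1 (0.943) and Selenom (0.919), an ER selenoprotein. Each of these r values stayed at 0.923 or above without Roquin san/+ replicate F.

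Mzb1 and Fkbp11 had other neighbours. The genes most like Mzb1 were Stac2 (0.954), Il1b (0.952), the inflammatory cytokine of myeloid cells, and Pla2g7 (0.945), a phospholipase of macrophages, with Sdc1 17th at 0.919. Those most like Fkbp11 were S100a8 (0.956), a granule protein of neutrophils, Fam129b (0.949) and Hp (0.934), which encodes haptoglobin, and without Roquin san/+ replicate F these were 0.936, 0.923 and 0.904. Mzb1 ranked 67th for Fkbp11, and the other 4 members ranked 470th (Sdc1) to 1134th (Xbp1). Creld2, second for Xbp1, was the only one of the 10 non-member neighbours with a promoter window to hold the spaced ER stress response element. Its site lies at positions -126 to -108, within chr15:88819514-88819543 (GRCm38.p6, plus strand), and is shown beside that of Derl3 at chr10:75893236-75893265, with the element in capitals.
Creld2: gcttctCGTGGcgagcctcaATTGGtccac
Derl3: ctctacCGTGGgacttccccATTGGctagc
A match describes the letters of these windows and is no measure of binding.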

How the data were processed

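Agilent Feature Extraction 10.5.1.1 files were deposited for 14 one-colour arrays, and the processed signal intensity, background-subtracted by that software, was used. The authors' table of log2 values, whose normalization is not given in the sources used here, served as an alternative, and signal and background intensity columns deposited in the scanner files served for normexp correction (offset 50). Spots of 2 arrays were moved by 2 rows, the best of 169 shifts. Log2 processed signals were centred on the 75th percentile of 10346 probes well above background on all arrays. Spots flagged as outliers on the well-placed arrays were left out. Probes well above background on all 6 well-placed arrays of at least 1 genotype were kept (29047). Of these, 234 with a missing value on any array were left out, leaving 28813. The number of arrays limits the precision. The genotypes were compared with limma 3.58.1 (lmFit, eBayes, R 4.3.3) and by exact permutation (scipy 1.17.1). Tested on simulated data of this comparison (28813 probes), the fit recovered 36% of 100 changes of 1 log2 unit and 83% of 100 of 2 units, and called 14 unchanged probes. The changed probes were drawn at random with independent noise, so these shares are not the power for the 6 genes. The standard errors of the 6 differences were 0.288 (Xbp1) to 0.451 (Mzb1 and Sdc1). Each gene is given by its brightest tested probe. The members and gene lists were chosen with earlier results of these data known. Named genes are the members, the 3 largest differences in each direction in the plasma cell and ER lists, the 3 genes most alike to each member, and the marker lists, with Prdm1, Jchain, Hspa5, Hsp90b1 and the immunoglobulin genes named after their values were seen. Promoters are from RefSeq (GRCm38.p6), and none for Mzb1 was used here.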

Additional observations from a re-analysis of the deposited data

Results flagged for a closer look

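In 3 of the 20 sets of 7 arrays tested for a far-off array (10 probes in each genotype), the lowest array stood away from the rest by Dixon's criterion, which chance meets in about 1 of 20 sets. All 3 were Roquin san/+ replicate E. Its level was -5.193 for the Xbp1 probe A_52_P185079, with the next array at -3.119, and -6.181 for the Xbp1 probe A_55_P2739653, with the next at -3.511. For the Sdc1 probe A_65_P20200 it was -7.693, with the next at -6.077. At the brightest Xbp1 probe the same array read 0.185, within the range of the wild-type arrays. Without replicate E the differences of the 3 probes were 0.98, 0.97 and 0.51, against 0.60, 0.51 and 0.215 with it.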

How the results depend on the processing

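No alternative brought a member past the adjusted threshold: the lowest limma adjusted p of any member probe over 29 settings was 0.403, and the count of probes called was 0 in each. Of 277 values of member probes under an alternative, 264 kept their direction and 13 turned. The median over the 6 genes, 0.53, was 1.61 within slide 1 and -0.005 within slide 2, and 0.33 to 0.70 when arrays were left out in turn, the lowest without wild-type replicate G. Within slide 2 the Xbp1 probes A_52_P185079 and A_55_P2739653 turned to -0.56 and -0.78, the Sdc1 probes A_52_P479269, A_65_P20200 and A_55_P2842699 to -0.352, -1.01 and -0.34, Derl3 to -0.016 and Tnfrsf17 to -0.23. Quantile normalization turned A_65_P20200 to -0.21, A_55_P2842699 to -0.035 and Fkbp11 to -0.17, and the authors' log2 values turned A_65_P20200 to -0.10, as did leaving out wild-type replicate G (-0.098, the lowest over arrays left out in turn, with 0.513 the highest). Those scalings also moved the median of all probes from 0.07 to -0.08 and -0.075, the 75th percentile over all probes moved it to -0.10, and normexp to 0.24. Within slide 2 the list medians turned to -0.16 (plasma cell regulators), -0.055 (ER stress), -0.43 (immunoglobulin), -0.91 (B-cell), -0.305 (plasmacytoid dendritic cell) and 0.29 (T-cell), within slide 1 the erythroid markers turned to 0.58, and the T-cell markers were 0.084 without Roquin san/+ replicate F and 0.081 without it and the re-registered arrays. The cause of these changes was not tested.

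The replicate letters do not pair the arrays: same-letter deviations correlated at -0.33 to 0.43, and 1 of 7 Roquin san/+ arrays correlated best with its own letter. The replicate block left the median at 0.53 and the count of calls at 0, and the block together with slide gave 1.04 and turned A_55_P2842699 to -0.25. The slide-by-genotype interaction and the list medians without doubted arrays were chosen after seeing the data. Dim probes limit what can be read: Sdc1, Fkbp11 and Tnfrsf17 were not well above background on the 2 re-registered arrays. Only Xbp1, Mzb1 and Derl3 could be tested when the filter required all 7 arrays of at least 1 genotype, re-registered arrays included.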
